A study of Mus musculus with 8 samples.

Results

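The CXC chemokines described here are 9 genes, Cxcl1, Cxcl2, Cxcl3, Cxcl5, Cxcl9, Cxcl10, Cxcl12, Cxcl14 and Cxcl16, of 22180 genes tested. They were taken by symbol from the array's annotation, 1 probe set each, and all 9 were measured. The study infected primary articular chondrocytes of wild-type ICR mice, 5 days old, with adenovirus. One group of 4 arrays received a control virus, Ad-null, and the other group of 4 arrays received Ad-Zip8, a virus that expresses the zinc importer ZIP8 (gene Slc39a8). RNA was taken at 24 h. Both groups therefore carry adenovirus, and no uninfected cells are among these samples. Sources used here do not name the promoter that drives Zip8 in the virus. The labels call the arrays of each group biological replicates. They do not say whether cultures came from separate animals or litters, so p-values cover only the spread between these arrays. Whether that spread includes differences between animals is not known.

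CXC chemokines are small secreted proteins that steer migrating cells through receptors of the CXCR family. Members with a glutamate-leucine-arginine motif before their first cysteines attract neutrophils through Cxcr2. Among the genes described here these are Cxcl1, Cxcl2, Cxcl3 and Cxcl5. All are classical targets of NF-kB, the transcription factor activated by IL-1, TNF and IL-17. Members without that motif attract other cells: Cxcl9 and Cxcl10 are interferon-induced ligands of Cxcr3 on T cells, Cxcl12 retains and guides Cxcr4-bearing cells, and Cxcl16 is made as a membrane protein that binds Cxcr6. In arthritic joints chondrocytes and synovial cells are known sources of the neutrophil-attracting members.

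Promoter sequences of 7 of the 9 genes were found in a RefSeq table (build GRCm38.p6). Those of Cxcl5 and Cxcl16 were absent from it and could not be searched. No match to the NF-kB consensus lay in Cxcl9, Cxcl12 or Cxcl14, of which Cxcl14 rose. The 4 promoters with a match are shown, and they include genes that rose and a gene that did not pass the test. Each is the 250 bases upstream of the annotated start, written 5′ to 3′ on the gene's own strand. They lie at chr5:90890995-90891244 (plus strand) for Cxcl1, chr5:90903649-90903898 (plus strand) for Cxcl2, chr5:90785851-90786100 (plus strand) for Cxcl3 and chr5:92348890-92349139 (minus strand) for Cxcl10. Capitals mark matches to the NF-kB consensus, and where matches overlap the capitals run together.
Cxcl1: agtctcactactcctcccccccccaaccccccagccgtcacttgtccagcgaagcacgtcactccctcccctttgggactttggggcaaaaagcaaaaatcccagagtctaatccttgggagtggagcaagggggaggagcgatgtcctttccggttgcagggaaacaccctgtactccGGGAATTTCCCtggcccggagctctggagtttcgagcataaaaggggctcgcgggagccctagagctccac
Cxcl2: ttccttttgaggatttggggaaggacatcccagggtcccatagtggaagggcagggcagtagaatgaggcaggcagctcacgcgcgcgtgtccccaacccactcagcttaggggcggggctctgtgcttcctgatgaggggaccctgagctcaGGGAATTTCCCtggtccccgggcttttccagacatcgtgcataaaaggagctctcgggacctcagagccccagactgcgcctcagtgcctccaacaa
Cxcl3: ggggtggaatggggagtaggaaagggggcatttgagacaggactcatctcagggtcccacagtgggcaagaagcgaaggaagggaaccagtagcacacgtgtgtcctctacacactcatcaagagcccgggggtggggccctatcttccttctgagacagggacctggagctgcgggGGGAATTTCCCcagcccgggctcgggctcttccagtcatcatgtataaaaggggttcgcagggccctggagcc
Cxcl10: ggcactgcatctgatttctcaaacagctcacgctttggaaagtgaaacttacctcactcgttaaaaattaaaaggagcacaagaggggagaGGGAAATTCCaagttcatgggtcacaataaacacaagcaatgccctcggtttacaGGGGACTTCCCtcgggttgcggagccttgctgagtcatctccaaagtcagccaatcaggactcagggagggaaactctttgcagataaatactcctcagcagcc

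The NF-kB consensus was searched on both strands and lay in 4 of the 7 member promoters, against 7.25% of all 32851 promoters cut to the same 250 bases. In Cxcl1, Cxcl2 and Cxcl3 the capitals spell the same 11 bases, GGGAATTTCCC, as a pair of overlapping matches. The last base of this run lies at position -61 in Cxcl1, -87 in Cxcl2 and -63 in Cxcl3, counted from the annotated start. On either strand this exact run was in 14 of the 32851 promoters, or 0.0426%, and these 3 paralogs were 3 of the 14. Cxcl10 held 3 matches, of which 2 overlap, and no copy of that run. The interferon-stimulated element, searched as GAAA, any 2 bases and GAAA, was in the promoters of Cxcl10 and Cxcl14 and in 2.98% of all promoters. The AP-1 motif TGANTCA was in Cxcl10 (6.75% of all promoters) and the STAT motif, searched as TTC, any 3 bases and GAA, in Cxcl14 (7.02%). A match is a stretch of letters, and nothing in these data measured binding there.

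Expression values are log2 intensities that the authors had normalised with RMA, so a difference of 1 is a doubling. Array medians lay between 5.04 and 5.11, and differences at the low end of the scale are compressed by background. Slc39a8, the gene carried by the virus, was at 6.12 to 6.27 on the 4 Ad-null arrays and at 10.9 to 11.2 on the 4 Ad-Zip8 arrays, as labelled. All 10 chondrocyte markers measured lay above the array medians in both groups. Among the Ad-Zip8 arrays, replicate 1 held the highest value of 6 of the 9 chemokines.

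With Ad-Zip8, 5 of the 9 chemokine genes rose: the 4 neutrophil attractants Cxcl3 (56.7-fold, from a control level near background), Cxcl5 (43.1-fold), Cxcl1 (14.0-fold) and Cxcl2 (3.06-fold), and Cxcl14 (1.41-fold). None fell, and Cxcl9, Cxcl10, Cxcl12 and Cxcl16 did not pass the test. A gene was called when its limma p, adjusted by the Benjamini-Hochberg method over all 22180 genes, was under 0.05. By that rule 5.48% of all genes tested were higher and 5.12% lower. With unadjusted p under 0.05, 6 of the 9 were higher and 0 lower. The share of all genes at that unadjusted threshold was not counted, so such counts have no background here or for the lists below. The 2 groups of arrays did not overlap for 5 of the 9, against 17.6% of all genes. The median log2 change of the 9 was 0.49, beside -0.02 over all genes. Cultures can differ in the number of cells of a type and in RNA per cell, which arrays cannot tell apart.

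**Figure D1:**
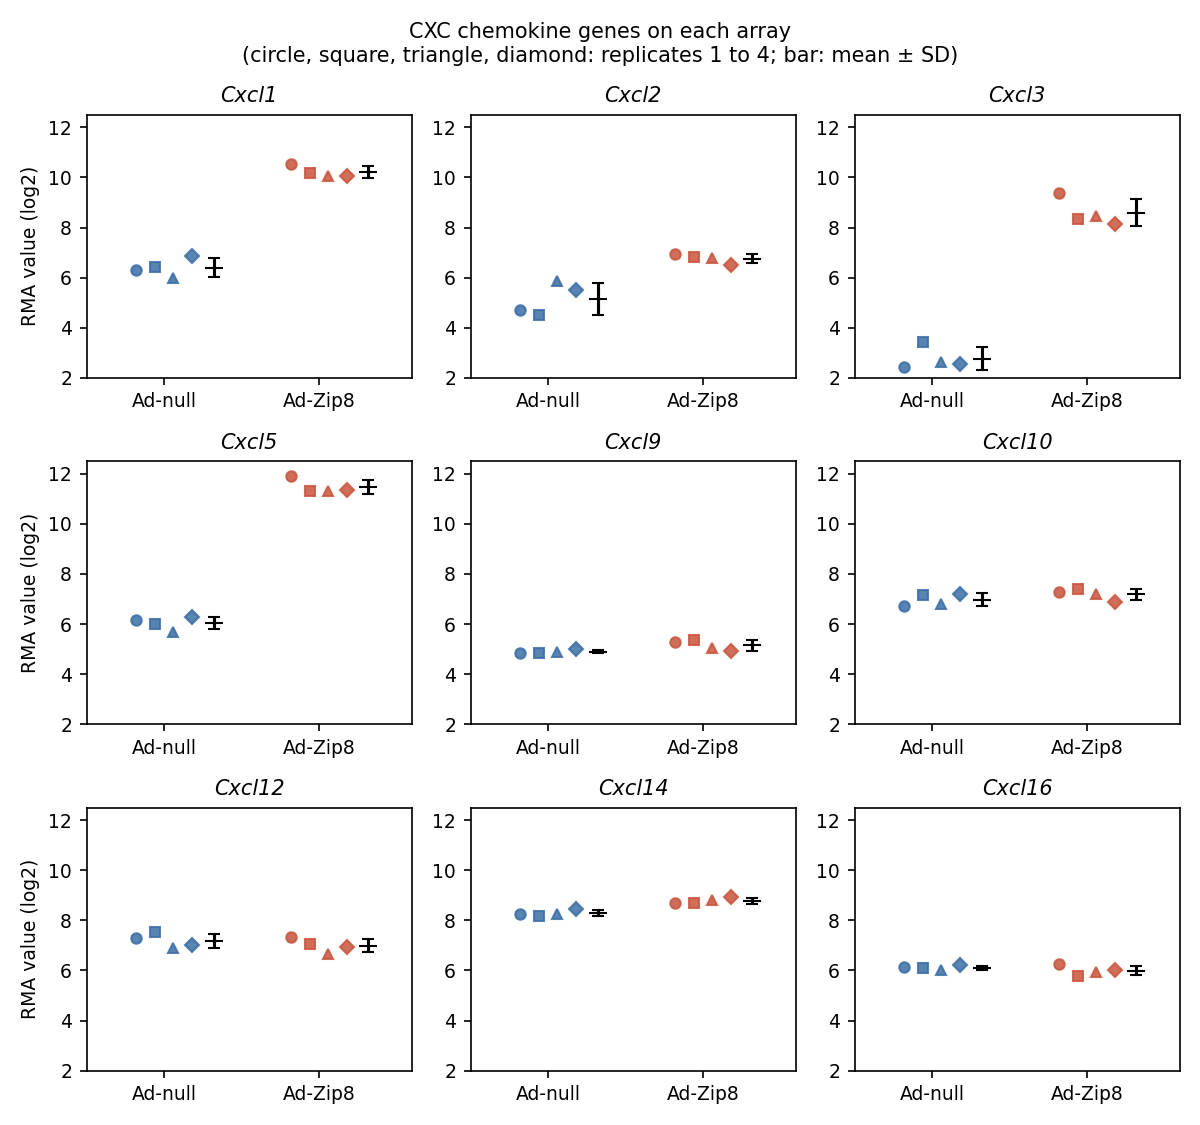
Log2 RMA value of each CXC chemokine gene on every array, with blue for Ad-null (4 arrays) and red for Ad-Zip8 (4 arrays), symbols for replicates 1 to 4 and bars for mean ± SD. Cxcl1, Cxcl2, Cxcl3, Cxcl5 and Cxcl14 are higher on all 4 Ad-Zip8 arrays than on any Ad-null array, and the other 4 genes overlap.

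Cxcl5 encodes a neutrophil attractant that many connective tissue cells release on cytokine stimulation. Its values were 6.18, 6.02, 5.70 and 6.28 on Ad-null replicates 1 to 4, and 11.9, 11.3, 11.3 and 11.4 on Ad-Zip8 replicates 1 to 4. The groups were 5.03 apart at their nearest arrays on the log2 scale, the widest gap of the 9 genes. The log2 change was 5.43 (SE 0.16, limma adjusted p = 1.16e-07). It was 5.29 without Ad-Zip8 replicate 1, whose value stood above the other 3.

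Cxcl3, a close relative of Cxcl1 and Cxcl2, had its controls lowest on the scale. It was at 2.43, 3.45, 2.62 and 2.55 with Ad-null and at 9.36, 8.35, 8.47 and 8.16 with Ad-Zip8. The groups did not overlap, and the log2 change was 5.82 (SE 0.28, limma adjusted p = 2.56e-06). All 4 Ad-null values were far below the array medians, where background compresses differences. The size of this change, 56.7-fold with a 95% interval of 36.5 to 87.8, is therefore uncertain and may be understated. Replicate 2 was the highest Ad-null array and replicate 1 the highest Ad-Zip8 array.

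Cxcl1, the mouse neutrophil attractant also known as KC, was at 6.32, 6.42, 5.98 and 6.87 with Ad-null and at 10.5, 10.2, 10.0 and 10.1 with Ad-Zip8. Every Ad-Zip8 array was at least 3.17 above every Ad-null array. The log2 change was 3.81 (SE 0.18, limma adjusted p = 2.32e-06).

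Cxcl2, also known as MIP-2, had the smallest measured change of these 4 and the widest spread among controls. Its Ad-null values were 4.70, 4.51, 5.87 and 5.51, with replicates 3 and 4 above replicates 1 and 2. Replicates 1 and 2 lay below the array medians, where differences are compressed, so its change may be understated. Its Ad-Zip8 values were 6.93, 6.83, 6.78 and 6.52. The groups still did not overlap, by 0.65, and the log2 change was 1.62 (SE 0.27, limma adjusted p = 0.00378; 0.0134 with the replicate number as a block).

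Whether these 4 genes rose to different extents was tested on the within-array difference between a pair of genes, by a two-sided exact permutation test over the 8 arrays. With 4 arrays against 4 the smallest p it can give is 0.0286, and p-values were adjusted over 7 pairs of genes. This test ignores any pairing by replicate number, which the labels do not state. Swaps within the 4 same-numbered pairs cannot give an exact p under 0.125, and with that replicate block no difference passed (adjusted p from 0.175 to 0.875). The change of Cxcl3 starts from controls near background, so compression can enter each of its differences below and their size is uncertain. Cxcl2 was below the array medians on Ad-null replicates 1 and 2, so compression can also enter its differences. Of these 4 genes, Cxcl2 had the smallest measured change. Its log2 change minus that of Cxcl5 was -3.82, and minus that of Cxcl3 -4.21. The change of Cxcl1 exceeded that of Cxcl2 by 2.20 (exact p = 0.0286 and adjusted p = 0.0400 for each of these differences). The log2 change of Cxcl1 minus that of Cxcl5 was -1.62, and minus that of Cxcl3 -2.01, also at an exact p of 0.0286 and an adjusted p of 0.0400. The measured changes of Cxcl3 and Cxcl5 were 0.39 apart (exact p = 0.257, adjusted p = 0.300), which does not order these genes. Cross-hybridisation between these close paralogs was not tested.

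In the reference order of genes, Cxcl5, Ppbp, Pf4, Cxcl3, Cxcl15, Cxcl1 and Cxcl2 are 7 consecutive protein-coding genes of chromosome 5, and all 7 encode CXC chemokines. Both platelet chemokine genes of the run had low signal, below the array medians in both groups, where differences are compressed. Pf4, platelet factor 4, was at 3.91 ± 0.15 with Ad-null and 3.91 ± 0.26 with Ad-Zip8 (SD, n = 4 each). Ppbp, the platelet chemokine also called Cxcl7, had a log2 change of 0.48 (SE 0.16, limma adjusted p = 0.103). Cxcl15, a chemokine known from lung epithelium, rose by 0.83 (SE 0.20, limma adjusted p = 0.0251), from 4.26 ± 0.36 to 5.09 ± 0.33 (SD, n = 4 each). Its call was lost when replicate 1 or 3 of Ad-null, or replicate 1 or 2 of Ad-Zip8, was left out, at limma adjusted p between 0.0520 and 0.0648. The immediate flanks Rassf6 (log2 change -0.21, limma adjusted p = 0.347) and Mthfd2l (0.22, limma adjusted p = 0.0792) did not pass the test. Farther along, Ereg, which encodes the growth factor epiregulin and was named after its value was seen, rose by 2.45 (SE 0.16, limma adjusted p = 1.28e-05).

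**Figure D2:**
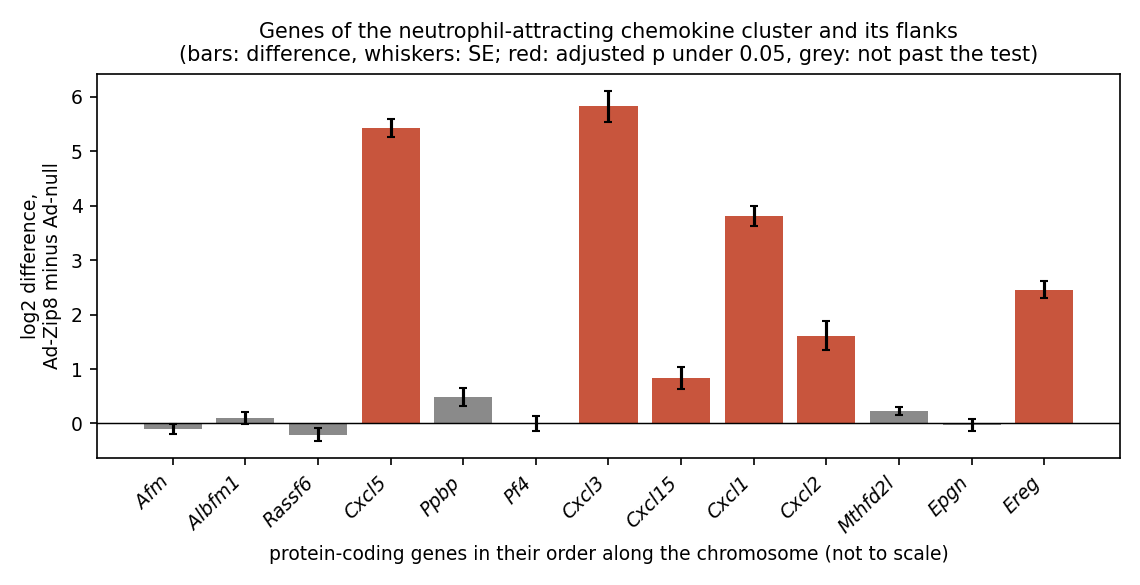
Log2 difference, Ad-Zip8 minus Ad-null, with its SE, for the 7 chemokine genes from Cxcl5 to Cxcl2 and the 3 protein-coding genes on each side, in chromosome order. Cxcl5, Cxcl3, Cxcl1 and Cxcl2 stand high, Cxcl15 is lower among the called genes at 0.83, and Ppbp and Pf4, both at low signal, did not pass the test.

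Cxcl14, a chemokine made by epithelia and other resting tissues, rose modestly and evenly. Its values were 8.26, 8.17, 8.27 and 8.45 with Ad-null and 8.68, 8.70, 8.79 and 8.93 with Ad-Zip8, a gap of 0.24 between the nearest arrays. The log2 change was 0.49 (SE 0.09, limma adjusted p = 0.00553), or 1.41-fold with a 95% interval of 1.23 to 1.61.

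The Cxcr3 ligands did not pass the test. Cxcl10, also known as IP-10, was at 6.72, 7.18, 6.78 and 7.22 with Ad-null and at 7.30, 7.40, 7.18 and 6.89 with Ad-Zip8, and the groups overlapped. Its log2 change of 0.22 (SE 0.15, limma adjusted p = 0.440) has a 95% interval of -0.11 to 0.54, so a rise above 1.46-fold lies outside it. Cxcl9 was at 4.86, 4.86, 4.90 and 4.99 with Ad-null and at 5.30, 5.36, 5.03 and 4.92 with Ad-Zip8, all near the array medians, where differences are compressed. Its log2 change was 0.25 (SE 0.10, limma adjusted p = 0.186), with a 95% interval of 0.02 to 0.48 before adjustment. Ad-Zip8 replicates 1 and 2 were above every Ad-null array for Cxcl9, and replicate 4 was within the Ad-null range. The changes of Cxcl9 and Cxcl10 differed by 0.03 (exact permutation p = 0.83, adjusted p = 0.83). Cxcl11, the third ligand of Cxcr3, was at 4.62 ± 0.05 and 4.68 ± 0.05 (SD, n = 4 each; log2 change 0.06, limma adjusted p = 0.646).

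Cxcl12, a stromal chemokine that acts through Cxcr4 and the scavenger receptor Ackr3, was at 7.28, 7.54, 6.91 and 7.01 with Ad-null and at 7.32, 7.05, 6.66 and 6.93 with Ad-Zip8. The groups overlapped widely, and the log2 change was -0.20 (SE 0.17, limma adjusted p = 0.552; 95% interval -0.57 to 0.17). In both groups replicate 3 was the lowest. Cxcl16, whose membrane-bound product is cut from the cell surface by ADAM proteases, was at 6.14, 6.10, 6.01 and 6.20 with Ad-null and at 6.25, 5.79, 5.94 and 6.0 with Ad-Zip8. Its log2 change was -0.12 (SE 0.10, limma adjusted p = 0.569; 95% interval -0.34 to 0.11).

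Among 8 further ligands of the CXC, CX3C and XC families, 2 rose, 0 fell and 6 did not pass. Beside Cxcl15 the gene that rose was Cx3cl1, which encodes fractalkine, a membrane-anchored chemokine. It went from 7.22 ± 0.10 to 8.0 ± 0.18 (SD, n = 4 each), a log2 change of 0.78 (SE 0.10, limma adjusted p = 8.61e-04). Cxcl13 (log2 change -0.17), Cxcl17 (0.02) and Xcl1 (-0.26) did not pass, and the median of the 8 was 0.04.

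Receptors showed no call: of 12 measured, 0 rose and 0 fell by limma, and 1 (Ackr3) had an unadjusted p under 0.05. Of the 12, 5 lay below the array medians in both groups, where differences are compressed, Cxcr6 and Ackr1 among them. Cxcr1 (5.16 and 5.08, group means) was near those medians and Cxcr2 only slightly above them, so compression can enter there too. Cxcr2, the receptor of the neutrophil attractants, was at 5.47 ± 0.22 with Ad-null and 5.33 ± 0.21 with Ad-Zip8 (SD, n = 4 each; log2 change -0.14, limma adjusted p = 0.609). Cxcr3 had a log2 change of -0.05 (limma adjusted p = 0.796), Cxcr4 of 0.10 (0.591), Cxcr6 of -0.12 (0.776) and Ackr1, a chemokine sink of red cells and venules, of 0.07 (0.814). Ackr3 was at 5.91 ± 0.08 and 6.13 ± 0.10 (SD, n = 4 each), without overlap, for a log2 change of 0.22 (SE 0.08, limma adjusted p = 0.127). The log2 changes of the 12 ran from -0.14 to 0.22.

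**Figure D3:**
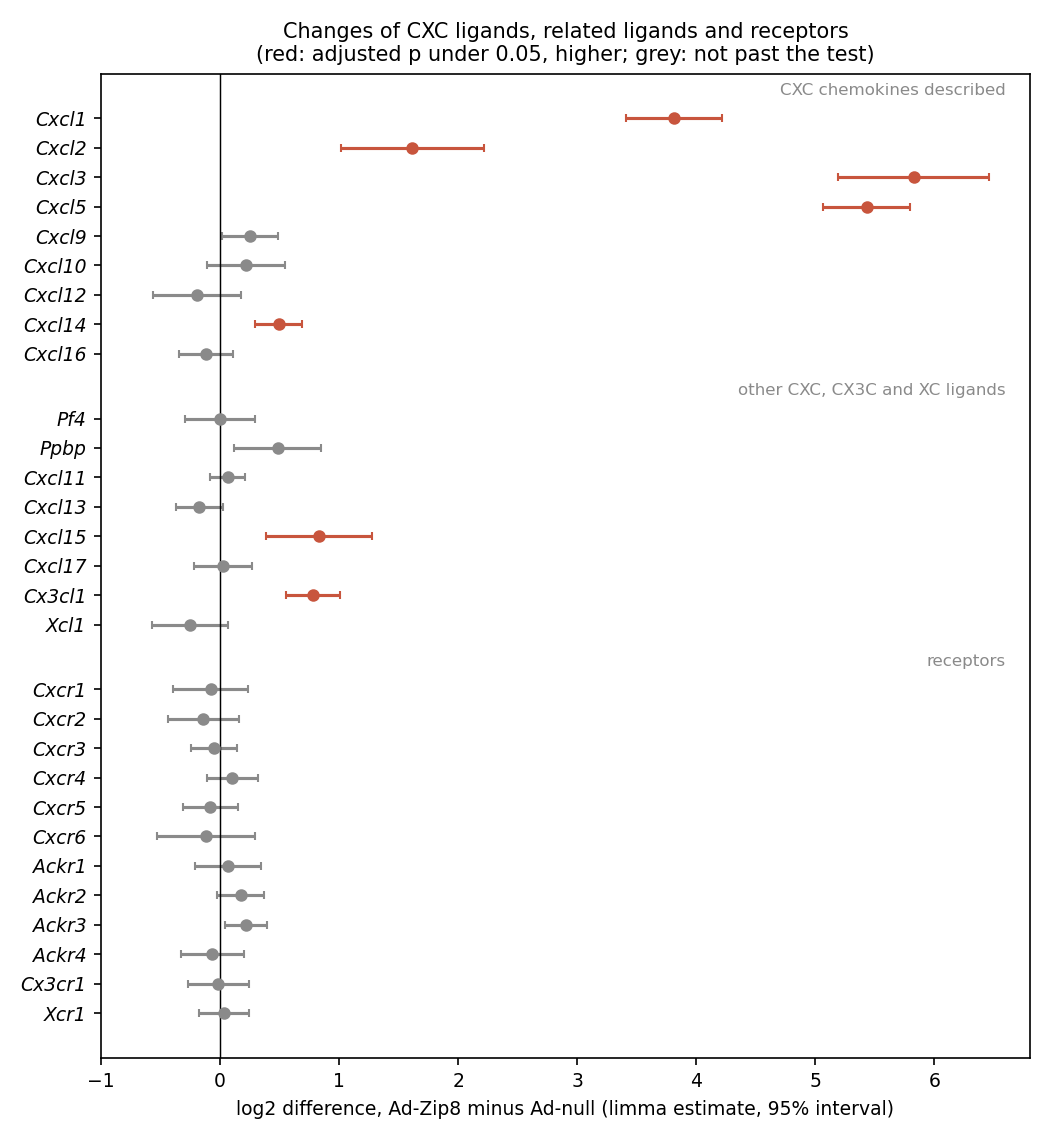
Log2 difference, Ad-Zip8 minus Ad-null, with its 95% interval from limma, for the 9 CXC chemokine genes, 8 related ligands and 12 receptors; red marks genes higher at an adjusted p under 0.05. Cxcl1, Cxcl2, Cxcl3 and Cxcl5 lie far from 0, whereas the 12 receptors lie between -0.14 and 0.22. Of the receptors, 5 were below the array medians in both groups, and Cxcr1 and Cxcr2 were near them.

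Genes that cut, shed or hold chemokines outside the cell rose in 5 of 8 cases with 0 lower. Sdc4 and Sdc1 encode syndecans, cell-surface heparan sulfate proteoglycans that bind chemokines, and had log2 changes of 0.90 (SE 0.07, limma adjusted p = 5.25e-05) and 1.39 (SE 0.13, limma adjusted p = 1.49e-04). Mmp9, whose gelatinase product trims neutrophil chemokines, rose by 2.20 (limma adjusted p = 8.05e-05), and Adam17, a sheddase of membrane proteins, by 0.81 (limma adjusted p = 2.37e-04). Tnfaip6, whose product TSG-6 binds chemokines, was the fifth, at 0.88 (limma adjusted p = 3.55e-04). Adam10, the main constitutive sheddase of Cxcl16, had a log2 change of 0.29 (limma adjusted p = 0.0505) and passed in 4 alternatives. Dpp4, which clips Cxcl10 and Cxcl12, did not pass (0.17).

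In the NF-kB list 8 of 12 measured genes rose and 0 fell. The largest changes were in Nfkbiz (2.36, SE 0.11, limma adjusted p = 2.56e-06) and Bcl3 (2.24, SE 0.11, limma adjusted p = 2.32e-06), which encode nuclear partners of NF-kB. Nfkbia, the gene of the inhibitor IkB alpha and itself an NF-kB target, rose by 1.17, and Nfkb2 by 0.58. Rela, Ikbkb and Ikbkg, which encode the main activating subunit and 2 parts of the upstream kinase, had log2 changes of 0.05, -0.06 and 0.03 and did not pass.

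Neutrophil chemokine mRNAs are short-lived, and of 8 genes that act on the stability of such mRNAs 4 rose and 0 fell. Zc3h12a, which encodes a nuclease that destroys cytokine mRNAs, rose by 1.98 (SE 0.18, limma adjusted p = 1.22e-04), and Arid5a, which encodes a protein that stabilises them, by 0.90 (limma adjusted p = 1.67e-04). Traf3ip2, the gene of the adaptor of the IL-17 receptor, rose by 1.01 (limma adjusted p = 1.39e-04), and Zfp36l1, an mRNA decay factor gene, by 0.88 (limma adjusted p = 7.52e-04). With an unadjusted p under 0.05, 5 of these 8 were higher and 1 lower.

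Of 11 interferon pathway genes 4 rose and 0 fell, each by less than 1 on the log2 scale. They were Ifnar2 (0.63, limma adjusted p = 9.66e-04), Irf1 (0.46, 0.00243), Stat2 (0.66, 0.00814) and Ifngr2 (0.49, 0.0112), genes of receptor chains and transcription factors. The interferon genes themselves were below the array medians in both groups: Ifnb1 at 3.26 and 3.34, and Ifng at 4.78 and 4.89 (group means).

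CC chemokines, the sister family, attract mainly monocytes and lymphocytes, and 5 of 15 measured rose with 0 lower. These were Ccl2 (log2 change 4.01), Ccl5 (3.76), Ccl7 (3.11), Ccl9 (2.02) and Ccl20 (1.62). The median log2 change of the 15 was 0.08, beside 0.49 for the 9 CXC genes. A difference between the families was not tested.

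**Figure D4:**
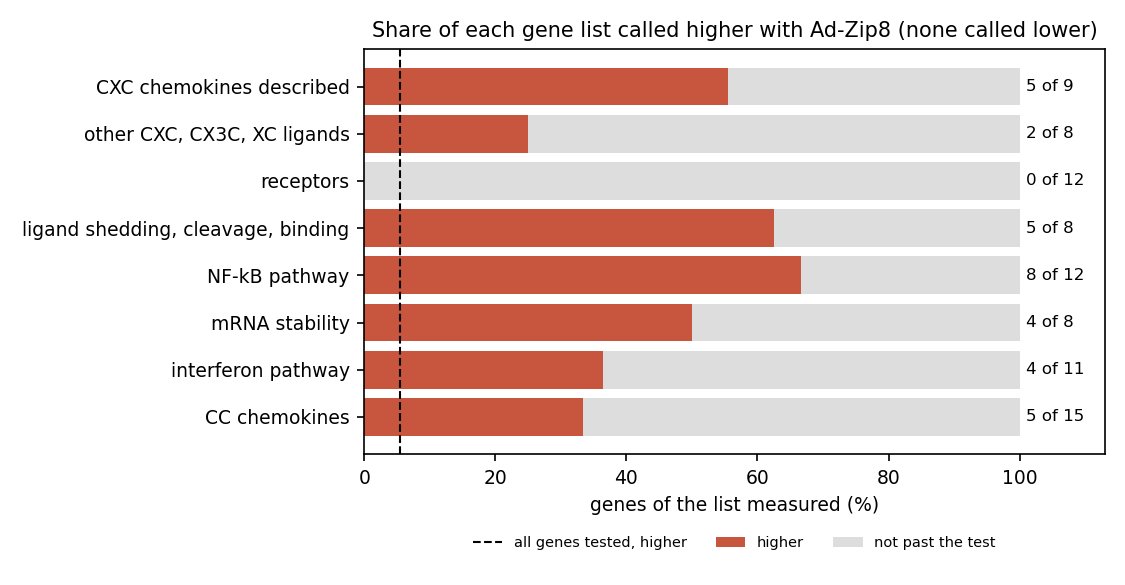
Share of the measured genes of each list called higher with Ad-Zip8 (limma adjusted p under 0.05), with the count at the right and a dashed line at the 5.48% of all genes tested. Receptors, 5 of them at low signal and Cxcr1 and Cxcr2 near the array medians, show 0 of 12, and the CXC chemokines described 5 of 9.

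Markers of other cells that could carry chemokine mRNA were given the same test. All 9 neutrophil markers measured lay below the array medians in both groups, among them S100a8 at 2.76 and 2.78 (group means). Camp was called higher (log2 change 0.60, limma adjusted p = 0.0425; 0.0697 with the replicate block), and 8 did not pass. The log2 of their summed linear level was 7.14 to 7.38 with Ad-null and 7.31 to 7.57 with Ad-Zip8. Of 14 macrophage markers, Cd68 rose by 0.83 and Laptm5 fell by 0.72 on the log2 scale, 12 did not pass, and the summed level was 8.96 to 9.03 and 9.06 to 9.20. Ptprc, the pan-leukocyte gene, was at 3.39 and 3.22 (group means). For T and NK cell markers (8) and endothelial markers (9) there was no call. An unadjusted limma p under 0.05 was seen for 1 higher and 1 lower T and NK marker, and for 0 endothelial markers. Low signal limits these lists: 7 of the 8 T and NK markers and 7 of the 9 endothelial markers were below the array medians in both groups. So were 8 of the 14 macrophage markers. The summed levels of the T and NK markers were 7.43 to 7.61 and 7.44 to 7.59, and of the endothelial markers 7.80 to 8.02 and 7.90 to 8.01. Of 7 synovial or fibroblast markers, Pdgfra (0.86) and Fbln1 (0.40) were called higher and 5 did not pass, at summed levels of 8.85 to 9.36 and 9.24 to 9.64. Among the 5, Dpt had a log2 change of -0.93 and was called lower with the replicate block (limma adjusted p = 0.0142) and without Ad-null replicate 3 (-1.26, limma adjusted p = 0.0189). The Fbln1 call was lost in 6 of the fits that left out an array. Of 7 skeletal muscle markers, Acta1 was lower (-0.50), at summed levels of 8.77 to 8.99 and 8.58 to 8.81, and that call was lost in 7 such fits. Chondrocyte markers fell in 8 of 10 cases, and their summed level went from 15.7 to 15.8 with Ad-null down to 15.1 to 15.4 with Ad-Zip8. The count was 7 with the replicate block, where Comp had a limma adjusted p of 0.0503. Comp was also lost in 5 of the fits that left out an array. With dim genes left out the count was 9, and with the variance trend 10. Col2a1 (-0.22) and Sox9 (-0.19) were the 2 that did not pass in the main fit. The part of any of these cells in the chemokine changes was not tested.

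The genes whose pattern over the 8 arrays was most like that of Cxcl1 were Nfkbiz, Lbp and Cebpd, each with a Pearson r of 0.998. All 3 rose with Ad-Zip8, by 2.36, 4.45 and 2.57 on the log2 scale, so the difference between the groups makes up most of this likeness. For Cxcl10 they were Rasl2-9 (r = 0.962), Zp3r (0.945) and Asb2 (0.936), and for Cxcl12 Pmvk (0.982), Calcoco1 (0.978) and Tbc1d9b (0.973). None of these 6 passed the test, and among 22180 genes and 8 arrays high values of r arise in number, so they are descriptions without a test.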

How the data were processed

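Gene expression was measured on 8 arrays, 4 per group. The authors deposited log2 values, 1 per probe set and array. The submitters' processing notes name RMA, which corrects background, equalises the arrays' distributions and summarises probes. It compresses differences at both ends of the scale. Its version, the probe set annotation and the array's genome build are not stated in the labels.

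Of 41345 probe sets, 23521 had 1 symbol, 1814 had several and 16010 were not listed in the annotation. Each gene was represented by its probe set of highest mean, leaving 22180 genes. Groups were compared in R 4.3.3 by a two-sided limma 3.58.1 test (eBayes after lmFit), without covariate or filter, checked on simulated data. The 95% intervals are limma's, unadjusted. The number of arrays limits the precision. Members, lists and tests were chosen with earlier results of these data known. The naming rule took all 9 members, the receptors of these ligands, and up to 4 called genes per list. Tnfaip6, Adam10, Dpp4, Ikbkb, Ikbkg, Rela, Ifnb1, Ifng, Ccl20, Ereg and the other ligands, flanking genes and markers fall outside it and were named after their values were seen. Nfkb1, Chuk, Ccl19, Lck and Ly6a were not analysed here.

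Replicate numbers 1 to 4 occur in both groups. Deviations from group means correlated at 0.11 to 0.37 between same-numbered arrays and at -0.27 to 0.16 between others. These ranges overlap. Deviations sum to 0 within a group, so a positive correlation of same-numbered arrays lowers the others in part automatically. The numbers were therefore taken as pairs only in alternatives to the main tests. That pairing comes from the data, not from the labels. Other alternatives were repeated quantile normalization, median centring, a filter on dim genes, a variance trend, the mean of all probe sets and leaving out each array. Promoter motifs were searched in RefSeq sequences of GRCm38.p6.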

Additional observations from a re-analysis of the deposited data

Results flagged for a closer look

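Cxcl5 on Ad-Zip8 replicate 1, at 11.9 on the log2 scale, stood apart from the other Ad-Zip8 arrays, of which the nearest was at 11.4. Groups of 4 arrays were screened for such values in 18 cases (9 genes, 2 groups), and chance flags about 1 in 20. Without that array the changes of Cxcl1, Cxcl3 and Cxcl5 were 3.70, 5.56 and 5.29 on the log2 scale, and their calls held.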

How the results depend on the processing

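Each of the 9 chemokine genes kept its direction and its side of the threshold in all 14 alternatives, so the count stayed at 5 higher and 0 lower, also with the replicate block. The log2 change ranged from 5.29 to 5.51 for Cxcl5, from 5.56 to 6.05 for Cxcl3, from 3.67 to 3.97 for Cxcl1, from 1.40 to 1.86 for Cxcl2 and from 0.44 to 0.55 for Cxcl14. The highest adjusted p was 0.0196 for Cxcl14 (without Ad-null replicate 2) and 0.0158 for Cxcl2 (without Ad-Zip8 replicate 1). For the 4 genes that did not pass, adjusted p was never under 0.0797 (Cxcl9, without Ad-Zip8 replicate 4). Over all genes the replicate block gave 1278 higher and 1059 lower. The count of lower genes moved both ways from 1136: it was 1610 with dim genes left out and 1621 with the variance trend, and leaving out 1 array gave 708 to 923, being 721 when Ad-null replicate 1 was left out and 708 when Ad-Zip8 replicate 1 was. Fewer arrays enter those fits. The differences in change between pairs of these genes moved by less than the spread between arrays when 1 array was left out. In an exact test with the replicate block, added after the data were seen, 5 differences that had passed, 2.20 (Cxcl1 minus Cxcl2), -2.01 (Cxcl1 minus Cxcl3), -1.62 (Cxcl1 minus Cxcl5), -4.21 (Cxcl2 minus Cxcl3) and -3.82 (Cxcl2 minus Cxcl5), no longer did (adjusted p = 0.175 each). That design cannot pass the threshold. Nfkbie, among the 8 NF-kB genes called, was lost in 6 of the fits that left out an array, which gave 7 or 8. Low signal limits Cxcl3 with Ad-null, Cxcl2 on Ad-null replicates 1 and 2, Cxcl9, Cxcl11, Cxcl15, Pf4, Ppbp and 5 of the 12 receptors. Cxcr1 and Cxcr2 lay near the array medians. List counts under these settings were added after the data were seen.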

Other observations

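The 11-base NF-kB run shared by Cxcl1, Cxcl2 and Cxcl3 occurred in the promoters of 11 further genes, of which 6 were measured. By limma 0 of these 6 were called in either direction, beside 5.48% of all genes tested called higher and 5.12% lower. At those shares, so few genes cannot show whether the run matters. Of the 6, 1 had an unadjusted p under 0.05, a count that has no background here. That gene, Il16, encodes a cytokine unrelated to the CXC family and differed by -0.34 on the log2 scale (SE 0.10, limma adjusted p = 0.0544). The other 5, Hpn, Kremen2, Krtap5-3, Lyzl4 and Zfp84, had log2 changes of 0.08, 0.02, -0.09, -0.04 and -0.06. Krtap5-3 was below the array medians in both groups (4.63 and 4.53, group means), where differences are compressed. The run was chosen after the promoters had been read, and no test was made.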
